A study of Mus musculus with 24 samples.

Results

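Appetite and arousal in the hypothalamus are carried by a small set of peptide-coding genes, and 10 of them were followed here by name: Agrp, Npy, Pomc, Cartpt, Hcrt, Pmch, Cck, Nts, Gal and Tac1. Members were all probe sets of the array annotated to one of these symbols alone, whatever their values. Of the 10 genes, 9 had such a probe set, with 11 probe sets in all, out of 45101 probe sets and 18194 genes with a probe set of 1 symbol. Pomc and Tac1 had 2 probe sets each and the other genes 1. Agrp, which codes for the agouti-related peptide, was not analysed here because no probe set carried its symbol in the annotation used.

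The mice were male ob/ob animals on chow, 9 weeks old at the end of 4 weeks of oral treatment. All groups therefore lacked leptin, the fat-derived hormone that the ob mutation removes, and no lean group was analysed. In the regular arm, γ-oryzanol, a rice bran component, was compared with its methylcellulose vehicle; in the Nano-Orz arm, γ-oryzanol-encapsulated nanoparticles were compared with their water vehicle. Each group had 3 mice, chosen by the study as representative, and 3 arrays per tissue, so that 12 hypothalamus and 12 liver arrays were used. The labels do not say whether both tissues came from the same mice. Arrays are called Veh 1 to Veh 3 and Orz 1 to Orz 3 within each arm, Orz standing for γ-oryzanol in either form. The labels give no dose.

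Npy and Agrp are made by arcuate neurons that drive feeding, while Pomc and Cartpt are made by arcuate neurons that restrain it. Leptin acts on both populations. Hcrt (hypocretin, also called orexin) and Pmch (melanin-concentrating hormone) mark separate neurons of the lateral hypothalamus, the first promoting arousal and the second feeding and sleep. Cck (cholecystokinin), Nts (neurotensin), Gal (galanin) and Tac1 (the precursor of substance P) are made in several hypothalamic nuclei and also elsewhere in the brain. In whole tissue, fewer cells of a type and less RNA per cell cannot be told apart.

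Values are log2 signals computed by the distribution free weighted method (DFW), which shrinks differences between arrays strongly. In the regular arm, 98.998% of all probe sets spanned less than 0.001 log2 units over the 6 arrays, and in the Nano-Orz arm 99.656% did. Differences below are therefore given in thousandths of a log2 DFW unit and are not fold changes of mRNA. The arms appear from their values to have been normalized apart, so levels of 1 arm are set beside those of the other without a test.

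Promoters are shown for the 3 genes of which a probe set was called changed in one arm, Cck, Nts and Pomc. They are RefSeq sequences on GRCm38.p6, from 250 bases before to 50 bases after the gene's start, 5′ to 3′. The table held a promoter for 9 of the 10 genes. Capitals mark matches to a TATA box (TATAAA), a cAMP response element (CRE, TGACGTCA) or its shorter form (TGACG, which every full element also holds), an AP-1 site (TGANTCA) and a STAT site (TTCNNNGAA), on either strand.
Cck, chr9:121495645-121495944, minus strand: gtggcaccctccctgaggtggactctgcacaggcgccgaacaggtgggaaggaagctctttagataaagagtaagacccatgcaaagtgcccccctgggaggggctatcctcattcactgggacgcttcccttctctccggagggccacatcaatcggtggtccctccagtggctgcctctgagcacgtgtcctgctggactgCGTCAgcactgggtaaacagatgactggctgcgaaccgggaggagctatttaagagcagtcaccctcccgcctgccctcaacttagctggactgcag
Nts, chr10:102490369-102490668, minus strand: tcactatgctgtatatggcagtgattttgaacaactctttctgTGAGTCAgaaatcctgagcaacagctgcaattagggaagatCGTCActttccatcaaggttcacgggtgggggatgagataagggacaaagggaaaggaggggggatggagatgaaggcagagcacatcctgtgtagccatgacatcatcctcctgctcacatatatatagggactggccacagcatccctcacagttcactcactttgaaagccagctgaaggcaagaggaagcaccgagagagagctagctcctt
Pomc, chr12:3954695-3954994, plus strand: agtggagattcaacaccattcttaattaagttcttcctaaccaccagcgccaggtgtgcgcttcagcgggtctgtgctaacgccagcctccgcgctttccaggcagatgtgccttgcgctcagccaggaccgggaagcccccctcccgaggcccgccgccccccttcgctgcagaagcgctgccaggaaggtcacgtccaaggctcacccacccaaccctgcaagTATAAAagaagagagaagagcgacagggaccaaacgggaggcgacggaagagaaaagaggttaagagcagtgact

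Of these 3 promoters, Pomc alone held a TATA box, 25 bases before the start, a motif found in 13.6% of 32851 promoters of the same length. Cck held the short CRE 47 bases before the start and Nts held one 166 bases before it, against 20.8% of all promoters. Nts also held an AP-1 site 207 bases before the start, against 7.81% of all promoters. Of the other genes, Cartpt held the only full CRE, 112 bases before the start, against 1.79% of all promoters, and Pmch held a TATA box, an AP-1 site and a STAT site (8.30% of all promoters). Hcrt held a TATA box, Tac1 held 2 short CREs and Gal held 1, whereas the Npy promoter held none of the motifs searched. E-boxes (CANNTG), not capitalised, were present in 72.3% of all promoters. A match is only a description of these letters.

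The peptide genes were far higher in the tissue labelled hypothalamus than in liver. In vehicle mice, 10 of the 11 probe sets lay 1.42 to 6.87 log2 units higher in hypothalamus than in liver, as shown in the plot of levels in both tissues. Pmch had the widest gap, with a mean of 13.36 in hypothalamus and 6.54 in liver in the regular arm and 13.001 and 6.133 in the Nano-Orz arm (n = 3 per mean). Hcrt followed the same pattern, with 11.52 in hypothalamus and 7.03 in liver in the regular arm. The exception was the Tac1 probe set 1431883_at, which lay 0.26 and 0.43 log2 units above its liver level in the regular and Nano-Orz arms, while the other Tac1 probe set, 1416783_at, lay 4.65 and 4.45 above. The tissues also appear to have been normalized apart, so these gaps are a description with no test.

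**Figure D1:**
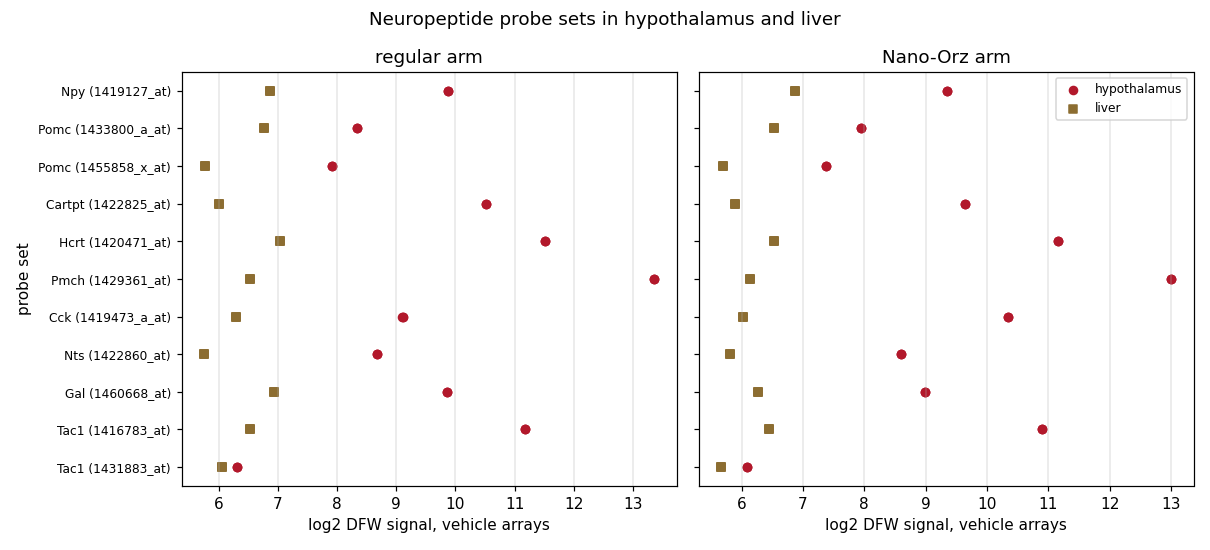
Log2 DFW signal (x axis) of the 11 neuropeptide probe sets (y axis) on the vehicle arrays of each arm, with circles for hypothalamus and squares for liver, 3 arrays per tissue and arm. All probe sets but Tac1 1431883_at lie 1.42 or more log2 units higher in hypothalamus, and the 3 arrays of a group overlap at this scale.

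Within the hypothalamus the study asked what oral γ-oryzanol in either form does to gene expression. By the rank product, which compares the rank of each probe set's difference over the 9 treated and vehicle pairs and gives an estimated proportion of false positives (pfp), no peptide gene was called higher and 1 of 11 probe sets, that of Cck, was called lower in the regular arm. The shares among all probe sets were 0.169% for higher and 0.39% for lower. In the Nano-Orz arm Nts was called higher and 1 of the 2 Pomc probe sets lower, against 0.244% and 0.745% of all probe sets. Quantile normalization moved the counts over all probe sets from 76 higher and 176 lower to 6 and 113 for regular γ-oryzanol, and from 110 and 336 to 62 and 99 for Nano-Orz. Limma, which sets the difference against the spread between arrays, called none of the 11 in either arm. It called 0 of 45101 probe sets after Benjamini-Hochberg adjustment in both arms (0.0%), with an unadjusted p under 0.05 for 5.68% under regular γ-oryzanol and 6.1% under Nano-Orz. The lowest unadjusted limma p of a peptide probe set was 0.0528, for Gal in the Nano-Orz arm.

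The peptide genes varied more between arrays than most probe sets did. In the regular arm 4 of the 11 probe sets (Cck, Npy and both of Pomc) were in the widest 1% of within-group SD, and 8 were in the widest 10%. In the Nano-Orz arm 3 were in the widest 1% (Nts and both of Pomc) and 6 in the widest 10%. Among probe sets of the widest 1%, the rank product called 4.87% higher and 29.9% lower with regular γ-oryzanol, and 8.85% higher and 51.5% lower with Nano-Orz. With 3 arrays per group, an exact two-sided permutation test over arrays cannot give a p below 0.1.

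The arcuate genes did not separate by treatment in the regular arm. Npy had a mean level of 9.88, and its deviations from the mean of the 6 arrays were 0.191, 0.256 and -0.294 thousandths on Veh 1, Veh 2 and Veh 3 and 0.165, 0.978 and -1.30 on Orz 1, Orz 2 and Orz 3. The vehicle arrays thus lay between the highest and the lowest treated array. The treated minus vehicle difference was -0.102 thousandths (SE 0.636), with a pfp of 0.303 for lower, an unadjusted limma p of 0.879 and an exact permutation p of 0.8. Without Orz 2, Npy was called lower (-0.617 thousandths, pfp 0.0346), so that 1 treated mouse decides this call.

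Pomc had the same arrays at its extremes on both of its probe sets. On 1433800_a_at the deviations were 0.0994, 0.0962 and -0.0490 thousandths on the vehicle arrays and -0.168, 0.793 and -0.772 on Orz 1, Orz 2 and Orz 3. On 1455858_x_at they were 0.439, -0.118 and -0.344 on the vehicle arrays and -0.0720, 1.53 and -1.44 on the treated ones. On both, Orz 2 was the highest and Orz 3 the lowest of the 6 arrays and the groups overlapped. The differences were -0.0977 (SE 0.424, pfp 0.146 for lower) and 0.0152 thousandths (SE 0.823, pfp 0.190 for higher), the second turning to -0.0127 after quantile normalization. Without Orz 2 the first was called lower (-0.519 thousandths, pfp 0.00819).

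Cartpt, the partner of Pomc in arcuate neurons, had the same order at its ends. Its deviations were -0.0310, 0.0460 and 0.0373 thousandths on the vehicle arrays and 0.0484, 0.348 and -0.448 on the treated ones. The SD of the treated arrays was 0.402 thousandths, against 0.0422 for vehicle (n = 3 each), and the difference between groups was -0.0349 (SE 0.216), which turned to 0.0596 after quantile normalization. No call was made (pfp 0.352 for higher and 0.827 for lower).

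The lateral hypothalamic genes varied less. Hcrt had deviations of -0.0747, 0.0641 and 0.0592 thousandths on the vehicle arrays and 0.0868, 0.0368 and -0.172 on the treated ones, with Orz 1 highest and Orz 3 lowest. Pmch, the most intense of the 11 probe sets at 13.36, spanned 0.0228 thousandths over the 6 arrays, with Orz 2 highest and Orz 3 lowest. The treated minus vehicle differences were -0.0324 (SE 0.0846) for Hcrt and -0.00095 thousandths (SE 0.00763) for Pmch, both within the spread of the arrays.

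Cck, the satiety peptide that is also transcribed in cortex, hippocampus and thalamus, was the single peptide gene called in the regular arm. Its signals were 9.1083, 9.1100 and 9.1064 on Veh 1, Veh 2 and Veh 3 and 9.1046, 9.0994 and 9.1134 on Orz 1, Orz 2 and Orz 3. Both the highest and the lowest array were treated ones, Orz 3 and Orz 2, and the groups overlapped. The difference was -2.43 thousandths (SE 3.90), with a pfp of 0.0337 for lower, an exact permutation p of 0.6 and a limma adjusted p of 0.998. The call ended without any 1 of Orz 1, Orz 2 or the 3 vehicle arrays, with a pfp of up to 0.288, and without Orz 2 the difference turned to 0.772 thousandths. It was kept without Orz 3 (-6.23 thousandths, pfp 0.000556) and without Orz 2 and Orz 3 together (-3.63, pfp 0.00289).

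The remaining peptide genes of the regular arm spanned far less than Cck. Nts spanned 0.00584 thousandths over the 6 arrays (difference -0.000814, SE 0.00213), Gal 0.0413 (0.00760, SE 0.0138) and Tac1 0.0736 on 1416783_at (-0.00130, SE 0.0213). The second Tac1 probe set had a within-group SD of 0.00142 thousandths, below the median of 0.00229 over all probe sets. None was called. No peptide probe set had groups that did not overlap in this arm, where 10.9% of all probe sets had (5.87% higher and 5.04% lower).

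**Figure D2:**
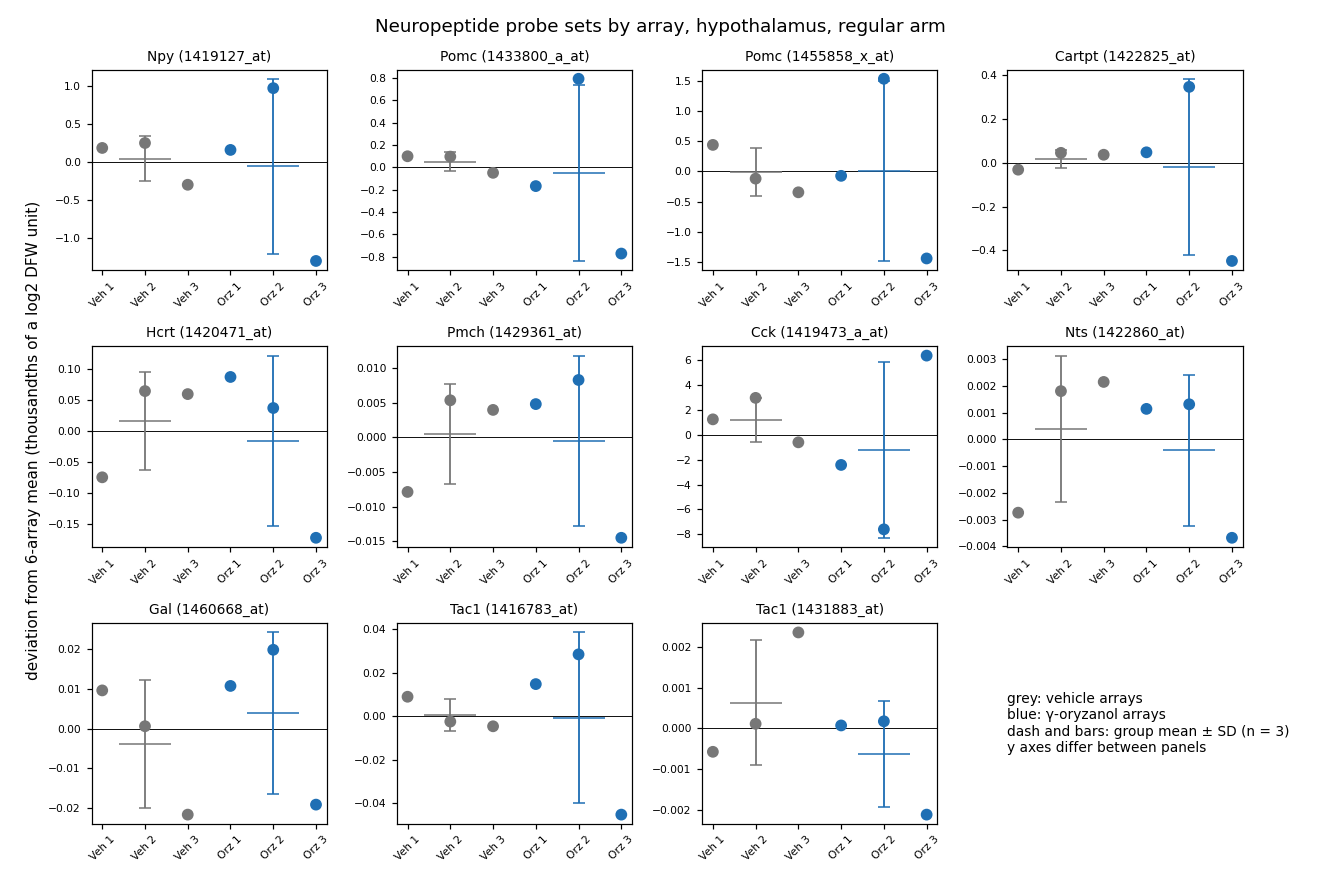
Deviation of each neuropeptide probe set from its mean over the 6 hypothalamus arrays of the regular arm (y axis, thousandths of a log2 DFW unit, scale differing between panels) for each array (x axis), with group means ± SD, n = 3. Orz 2 is the highest array at 7 of 11 probe sets and Orz 3 the lowest at 9 of 11, while Cck runs the other way and the vehicle arrays lie between in most panels.

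The pattern shared by the peptide genes in the regular arm ran between treated mice and not between groups. Orz 2 was the highest array at 7 of the 11 probe sets, against 17.3% of all probe sets, and Orz 3 was the lowest at 9 of 11, against 22.6%. Cck ran the opposite way, with Orz 2 lowest and Orz 3 highest. The same pair of arrays stood at the ends of a thalamus marker list. Of 15 thalamus marker genes, each read on its most intense probe set, 15 were highest on Orz 3 and 14 lowest on Orz 2. Their mean level ranged from 8.775 to 8.781 in vehicle mice and from 8.746 to 8.794 in treated mice, and 16 of the list's 38 probe sets were called lower and 3 higher. Tcf7l2, a transcription factor gene of thalamic neurons, deviated by 2.33, 6.02 and 5.55 thousandths on the vehicle arrays and by -4.44, -28.8 and 19.4 on Orz 1, Orz 2 and Orz 3, the order of Cck at both ends. The part of such tissue in the peptide results was not tested.

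Likeness between genes was taken over the 12 hypothalamus arrays after each group's mean was subtracted, as a description without a p, since all genes share these arrays and their DFW shrinkage. Where arrays were left out of an r, the group means subtracted still included them. The arrays kept from their group are therefore not independent of those left out, and such an r cannot show what these arrays alone contribute. The genes most like Cck, among named probe sets of the widest 1% of spread, were Tanc1 (Pearson r 0.997, Spearman rho 0.874), Tiam1 (r 0.996, rho 0.839) and Tcf7l2 (r 0.991, rho 0.692). Cck had a within-group SD of 5.16 thousandths in the regular and 0.0154 in the Nano-Orz arm, so these r mostly reflect the regular arm. Within that arm alone they were 0.997, 0.996 and 0.991. Ranked within the Nano-Orz arm, the genes most like Cck were Ramp3 (r 0.899), Ptpn4 (0.895) and Gabrd (0.855). Over both arms without regular Orz 2 and Orz 3, r with Tanc1, Tiam1 and Tcf7l2 was 0.984, 0.941 and 0.966. Outside the 10 peptide genes, which this ranking left out, Npy was most like Gpr50, an orphan receptor gene of the hypothalamus (r 0.802, rho 0.699). That r fell to 0.588 without regular Orz 2 and Orz 3. Ranked within 1 arm, Npy was most like Hdc in the regular arm (r 0.927) and Jph1 in the Nano-Orz arm (r 0.867).

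Among the peptide genes, Npy was most like Tac1 (r 0.959, rho 0.706), followed by Cartpt (r 0.949, rho 0.469), Pomc (r 0.925, rho 0.455) and Gal (r 0.820, rho 0.629), and it ran against Cck (r -0.881, rho -0.133). When regular Orz 2 and Orz 3 were left out, the r of Npy with Cartpt, Pomc and Cck was 0.0781, 0.198 and 0.577. With Tac1 and Gal it was 0.629 and 0.735 without these arrays, but within the Nano-Orz arm it was 0.275 for Tac1 and -0.813 for Gal. Hcrt and Pmch, both of the lateral hypothalamus, had r 0.958 (rho 0.937). It was 0.961 without the 2 arrays farthest from their group means on Hcrt, regular Orz 1 and Orz 3. Within the regular arm alone r was 0.960 (0.969 without the 2 farthest), whereas within the 6 arrays of the Nano-Orz arm it was 0.507 and turned to -0.386 without the 2 farthest. Cartpt had r 0.882 (rho 0.930) with Pmch, 0.776 (rho 0.811) with Hcrt and 0.931 (rho 0.322) with Pomc. Without regular Orz 2 and Orz 3 these r were 0.837, 0.843 and -0.112. Within the Nano-Orz arm they were 0.618, -0.195 and 0.504.

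In the Nano-Orz arm Nts was the single peptide gene called higher. Its signals were 8.60432, 8.60447 and 8.60452 on Veh 1, Veh 2 and Veh 3 and 8.60454, 8.60456 and 8.60459 on Orz 1, Orz 2 and Orz 3, so that the groups did not overlap. Veh 1 lay farthest from the rest, at -0.177 thousandths from the mean of the 6 arrays, against -0.0306 and 0.0200 for the other vehicle arrays and 0.0408 to 0.0847 for the treated ones. The gap between the highest vehicle and the lowest treated array was therefore smaller than the range of either group.

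The Nts difference was 0.125 thousandths (SE 0.0555), with a pfp of 0.004, an exact permutation p of 0.1, the smallest this design allows, and a limma adjusted p of 0.845. The pfp rose to between 0.0564 and 0.0787 when any 1 treated array was left out, which ended the call. Without Veh 1 the difference fell to 0.0678 thousandths and the call was kept (pfp 0.02), and without Veh 1 and Veh 2 together it was 0.0425 (pfp 0.0644). Quantile normalization gave 0.266 thousandths and no call. In the regular arm Nts had not moved by more than 0.00584 thousandths between any 2 arrays.

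Veh 1 also stood apart at other lists in that arm. Over all probe sets of the arm, 15.2% were highest and 18.3% lowest on Veh 1. Of 10 cortex and hippocampus markers, 5 were highest on Veh 1. The list's mean level ranged from 8.1317 to 8.1367 in vehicle mice and from 8.1315 to 8.1318 in treated mice. Neurod6, a transcription factor gene of cortical and hippocampal excitatory neurons, deviated by 40.0 thousandths on Veh 1 and by -11.9 to 1.26 on the other arrays. This 1 gene carried most of the list's higher mean on Veh 1. Thalamus markers were lowest on Veh 1 in 12 of 15 genes and highest on Orz 2 in 10 and on Orz 1 in 4. Of the 38 thalamus probe sets, 32 had a difference above 0, 7 had all treated arrays above all vehicle arrays and 1 was called higher. Their mean level was 10.15690 to 10.15695 in vehicle and 10.15694 to 10.15699 in treated mice. Choroid plexus markers were highest on Veh 1 in 9 and on Veh 2 in 4 of 13 genes, and 17 of the list's 21 probe sets were called lower. Ttr, the transthyretin gene of choroid plexus epithelium, had on its most intense probe set log2 signals of 16.36, 16.24 and 9.33 on the vehicle arrays and 7.11, 13.18 and 10.28 on the treated ones, while the mean of the other 12 genes was 6.666 to 6.672 in vehicle and 6.665 to 6.666 in treated mice. The part of these tissues in the Nts result was not tested.

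For Pomc, 1 of the 2 probe sets was called lower in the Nano-Orz arm. On 1455858_x_at the signals were 7.38092, 7.38214 and 7.38130 on the vehicle arrays and 7.38141, 7.38097 and 7.38063 on the treated ones. Veh 2 was the highest array and Orz 3 the lowest, and the groups overlapped, since Veh 1 lay below Orz 1 and Orz 2. The difference was -0.449 thousandths (SE 0.392), with a pfp of 0.0434, an exact permutation p of 0.5 and a limma adjusted p of 0.956. Quantile normalization gave -0.151 thousandths and no call. Without Veh 2 it was -0.106 thousandths (pfp 0.634), and the call was also lost without Orz 2, Orz 3, Veh 1 or Veh 3.

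The other Pomc probe set, 1433800_a_at, kept the same order of arrays at both ends with smaller deviations, 0.225 thousandths on Veh 2 and -0.140 on Orz 3. Its difference was -0.110 thousandths (SE 0.0947, pfp 0.118), which turned to 0.210 after quantile normalization. Without Orz 1 it was called lower as well (pfp 0.0331). Pomc is also the main transcript of corticotrophs and melanotrophs of the pituitary. Of 12 pituitary marker genes other than Pomc, 8 were highest on Veh 2, where both Pomc probe sets had their highest signal. Over all probe sets, 16.8% were highest on Veh 2. Gh, the growth hormone gene, deviated on its most intense probe set, 1460310_a_at, by 3.51 thousandths on Veh 2 and by -1.30 to 0.210 on the other arrays. The list's mean level was 6.585 to 6.588 in vehicle and 6.584 to 6.586 in treated mice. Of its 20 probe sets, 3 were called higher, all of Gh, although their means were lower in treated mice, and 1 lower, that of Cga. Those 3 Gh probe sets deviated by 21.3 to 23.2 thousandths on Veh 2 and by 2.58 to 3.64 on Orz 3, and lay below their means on the other arrays. The part of pituitary tissue in the Pomc result was not tested.

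Npy, the counterpart of Pomc in feeding, varied far less in this arm than in the regular one, with a within-group SD of 0.0181 thousandths against 0.842. Its deviations were 0.0222, 0.00984 and -0.00858 on the vehicle arrays and -0.00649, 0.0119 and -0.0289 on the treated ones. The difference was -0.0156 thousandths (SE 0.0136, pfp 0.542) and turned positive after median centring (0.0295) and quantile normalization (0.119). Cartpt had a difference of -0.0119 thousandths (SE 0.0197), which also turned positive under both scalings.

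For the lateral hypothalamic genes the size of the difference depended on the scaling. On the values as deposited, Hcrt differed by 0.00659 thousandths (SE 0.00297, exact permutation p 0.2) and Pmch by -4e-05 (SE 0.000647), neither of them called. After median centring the differences were 0.0518 for Hcrt and 0.0451 thousandths for Pmch, whose sign turned, and after quantile normalization 1.15 and 9.37 (pfp 0.696 and 0.123), again with no call. Gal had 0.0148 thousandths (SE 0.00577, pfp 0.323, exact permutation p 0.2), and its only overlap was that Orz 2 lay below Veh 3. Cck, the gene called in the regular arm, differed by 0.00426 thousandths (SE 0.0116) here and spanned 0.0406, against 14.0 in the regular arm.

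Tac1 gave opposite signs on its probe sets. The intense one, 1416783_at, differed by 0.00133 thousandths (SE 0.000807, and 1.21 after quantile normalization without a call) and the weak one, 1431883_at, by -0.00773 (SE 0.00334), the latter turning to 0.0375 after median centring. The weak probe set had groups that did not overlap, with Veh 2 highest and Orz 2 lowest, but was not called (pfp 0.667). With Nts, 2 of 11 peptide probe sets did not overlap between groups in this arm, where 11.1% of all probe sets did not (6.18% higher and 4.95% lower).

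**Figure D3:**
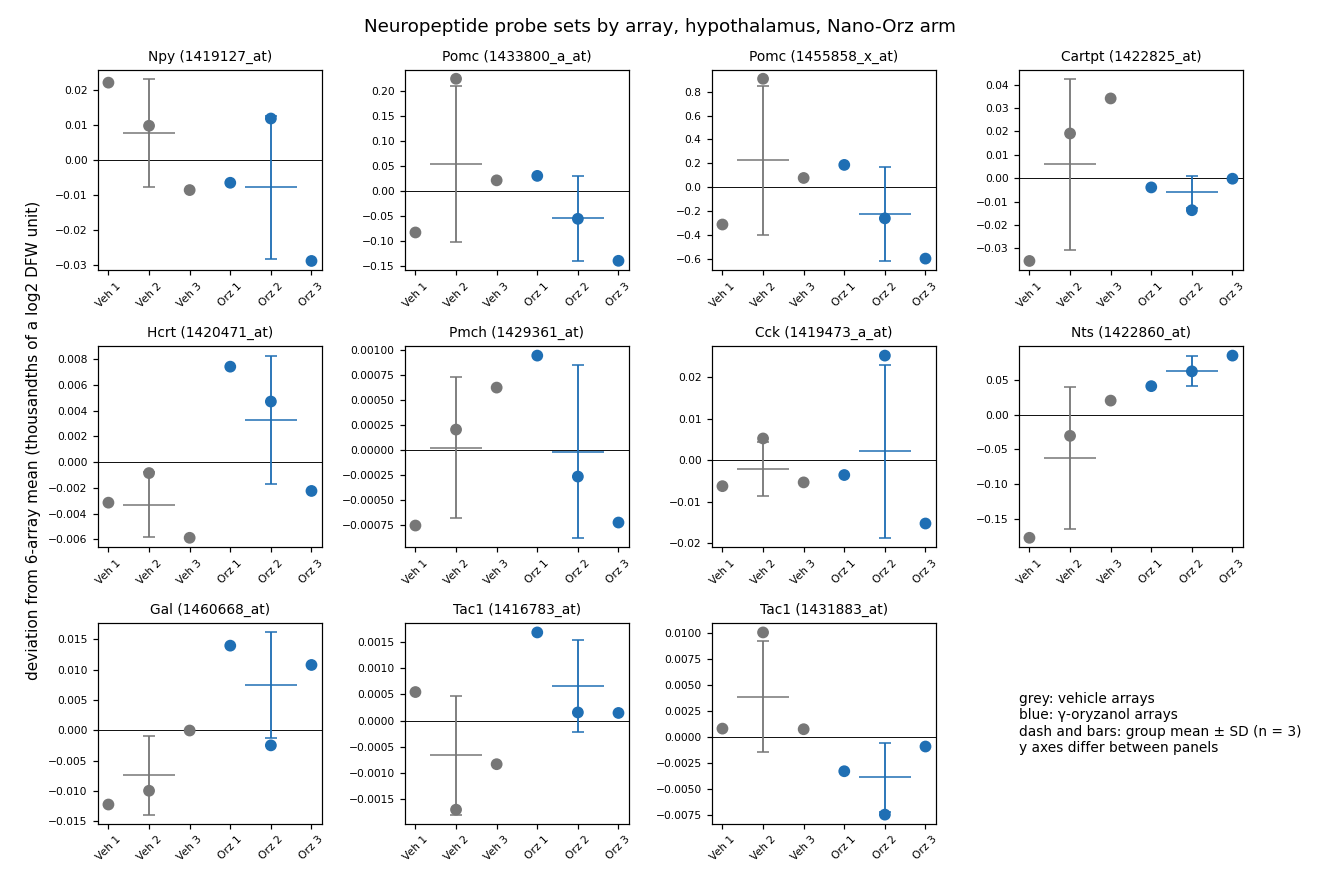
Deviation of each neuropeptide probe set from its mean over the 6 hypothalamus arrays of the Nano-Orz arm (y axis, thousandths of a log2 DFW unit, scale differing between panels) for each array (x axis), with group means ± SD, n = 3. Nts has all treated arrays above all vehicle arrays with Veh 1 far below, and both Pomc panels have Veh 2 highest and Orz 3 lowest.

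**Figure D4:**
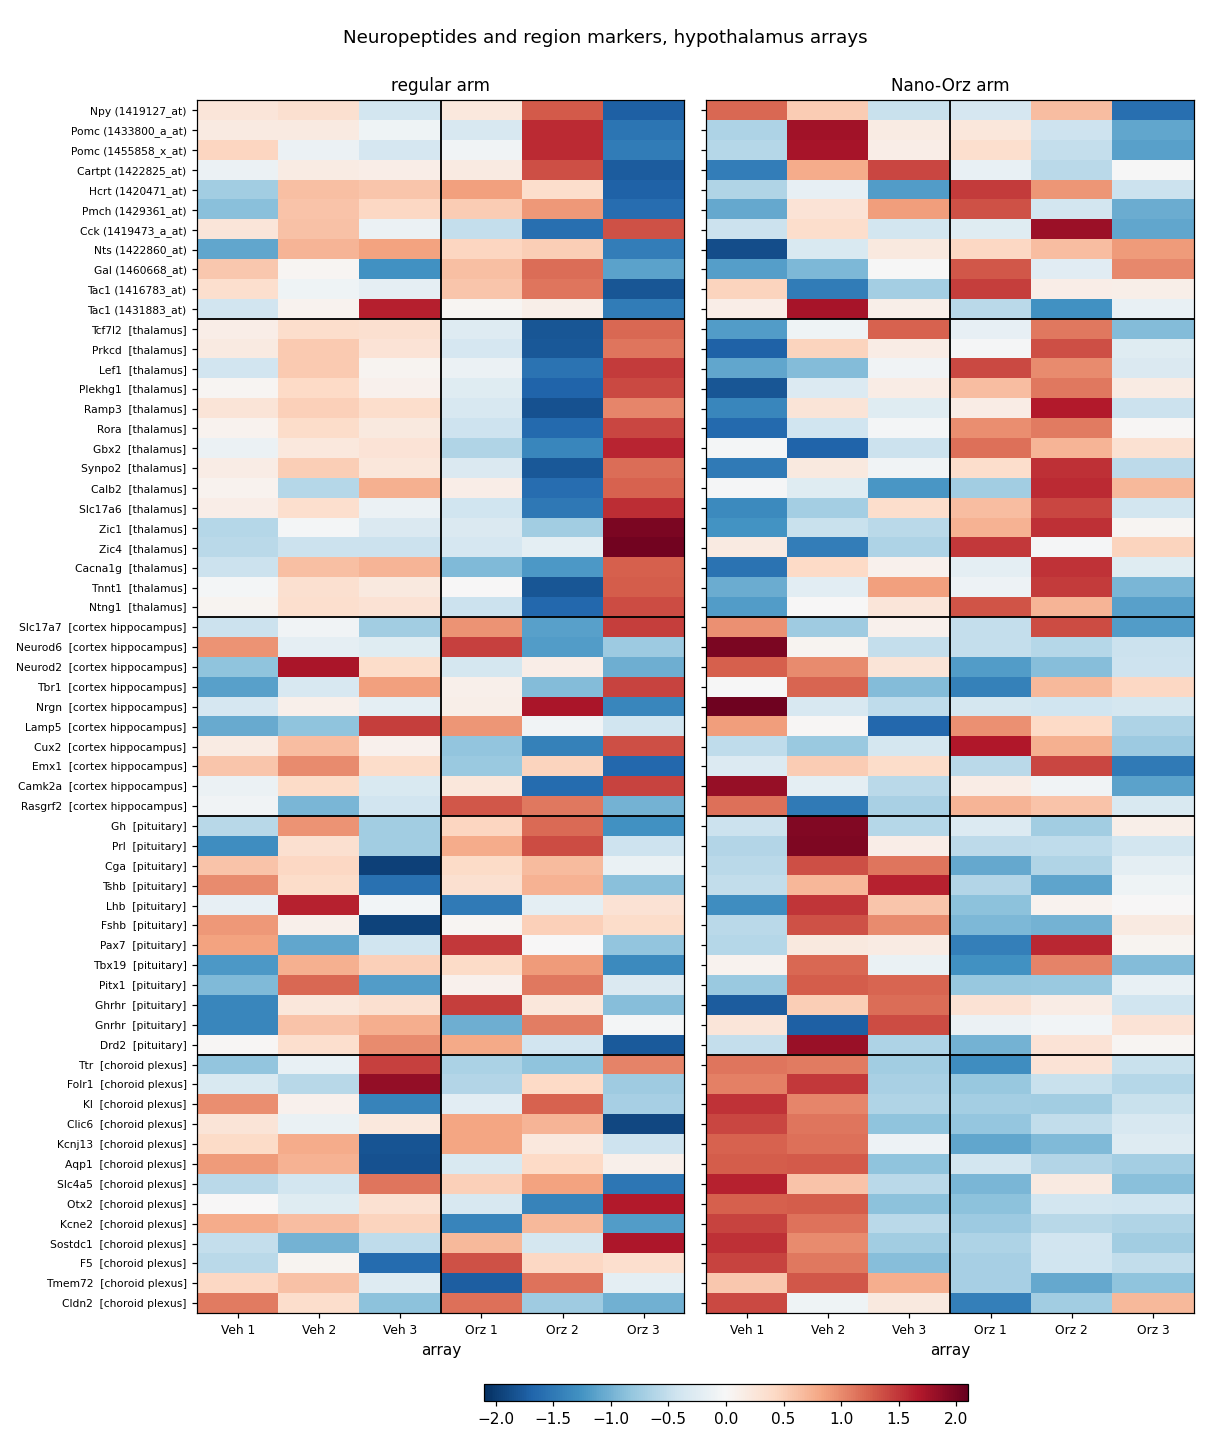
Standardized deviation of the 11 neuropeptide probe sets and of 15 thalamus, 10 cortex and hippocampus, 12 pituitary and 13 choroid plexus marker genes (rows) on the 6 hypothalamus arrays of each arm (columns), in SDs over the 6 arrays, red above and blue below the mean. In the regular arm most peptides are red on Orz 2 and blue on Orz 3 while Cck and the thalamus markers are the reverse, and in the Nano-Orz arm Pomc and 8 of 12 pituitary genes are highest on Veh 2.

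Whether the treated minus vehicle difference itself differed between the arms was tested as an interaction in limma over the 12 arrays. The arms differ in vehicle and, by the paper's methods, in dose as well as in form, and these cannot be told apart. They also appear to have been normalized apart, so each effect is taken to be in the units of its own arm. The fit pools the spread of both arms, although the within-group SD of Cck was 5.16 thousandths in the regular and 0.0154 in the Nano-Orz arm. None of the 11 peptide probe sets had an adjusted p below 0.05, and over all probe sets 2 of 45101 had (0.00443%), with 6.87% below 0.05 unadjusted. Nts came closest, with an effect 0.126 thousandths higher in the Nano-Orz arm (SE 0.0577, adjusted p 0.741). For Cck the effects differed by 2.43 thousandths (SE 4.02, adjusted p 0.982). For Pomc 1455858_x_at they differed by -0.464 (SE 0.940, adjusted p 0.988). All 11 unadjusted interaction p-values were above 0.05, with 0.0576 for Nts the lowest.

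As a list, the peptide genes had a median difference of -0.00130 thousandths in the regular arm, where the median of all probe sets was -1.47e-05, and 2 of 11 differences were above 0, against 49.2% of all probe sets. In the Nano-Orz arm the median was -4e-05 against 2.43e-05, and 5 of 11 were above 0, against 51.7%. In that arm 4 of the 6 negative differences turned positive after median centring.

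No receptor gene for these peptides was called by the rank product. Of 19 receptor genes, among them those for melanocortins, Npy, hypocretins, melanin-concentrating hormone, cholecystokinin, neurotensin, galanin and tachykinins, 17 had a probe set, and 0 of 28 probe sets were called in either arm. For this list and those below, the shares over all probe sets were 0.169% higher and 0.39% lower in the regular arm. In the Nano-Orz arm they were 0.244% and 0.745%, so 0 of 28 was near the share over all probe sets. Limma called none of the 28 either, nor any other probe set in either arm. Of 15 genes for prohormone processing and dense-core vesicles, 14 had a probe set. Cadps2, which primes such vesicles for release, was called higher in the regular arm (0.182 thousandths, SE 0.0484, pfp 0.0187), and none was called in the Nano-Orz arm. That call was lost without any 1 treated array or Veh 2.

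Of 18 genes for hormone sensing in these neurons, 17 had a probe set, 36 in all. Lepr, the leptin receptor, was called lower in the Nano-Orz arm on 2 of its 4 probe sets. On 1425644_at the signals were 5.65892, 5.65885 and 5.65898 on the vehicle arrays and 5.65824, 5.65831 and 5.65871 on the treated ones. All treated arrays were below all vehicle arrays, as at 4.95% of all probe sets in this arm. The difference was -0.495 thousandths (SE 0.139, pfp 0.000385). No single left-out array ended that call (pfp up to 0.0362), and it was kept after quantile normalization, where the difference was -0.252 thousandths (pfp 0.0317). On 1456156_at it was -0.321 (SE 0.123, pfp 0.00738), lost without Veh 1 or Veh 2 and after quantile normalization (pfp 0.274). Both probe sets were weak, with vehicle means of 5.659 and 5.798. The lowest value in this arm was 5.287, and the array medians were near 7.153. Lepr is also transcribed in choroid plexus, of which 17 of 21 marker probe sets were called lower in the same arm, and the part of that tissue in the Lepr result was not tested. The limma adjusted p-values were 0.781 and 0.814. Ramp3, a calcitonin receptor partner that is also one of the thalamus markers, was called lower in the regular arm (-15.1 thousandths, SE 15.0, pfp 0.00318), with Orz 2 lowest and Orz 3 highest as for Cck. That call was lost without Orz 1, Orz 2 or any 1 vehicle array (pfp up to 0.128), and without Orz 2 the difference was -0.918 thousandths.

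Of 26 other neuropeptide genes, 21 had a probe set. In the regular arm 4 were called higher: Vip of the suprachiasmatic nucleus (10.1 thousandths, SE 5.16), the oxytocin gene Oxt (1.03, SE 0.168), the thyrotropin-releasing hormone gene Trh (0.544, SE 0.236) and the corticotropin-releasing hormone gene Crh (0.107, SE 0.0290). The calls of Vip and Oxt were kept without any 1 array, with a pfp of up to 0.0382, and those of Trh and Crh were not. Without Veh 2, its lowest array, Vip differed by 4.85 thousandths. After quantile normalization the call of Vip remained (10.004 thousandths), and those of Oxt (0.513, pfp 0.0678), Trh, Crh and Cadps2 were lost. In the Nano-Orz arm Crh (0.0805, SE 0.00867) and Trh (0.0483, SE 0.0128) were called higher and the vasopressin gene Avp lower (-0.147, SE 0.0798), each lost without at least 1 array and after quantile normalization, which turned Avp to 2.37 thousandths. None had a limma adjusted p below 0.05 in either arm.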

How the data were processed

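Hypothalamus and liver RNA was hybridised to Affymetrix mouse arrays, and the deposited values are log2 signals that the authors computed by DFW. From the values, this appears to have been done separately per tissue and arm. Values were used as deposited, and 24 columns of further tables that no label maps to a sample were not used. Of 45101 probe sets, 34958 had 1 gene symbol in the platform annotation, 932 several and 9211 none. Following the study's methods, treated and vehicle hypothalamus arrays were compared by a rank product over 9 pairs with 100 permutations (Python 3.11.15, numpy 2.4.6), called at pfp below 0.05. Differences, SEs and adjusted p-values came from limma 3.58.1 (R 4.3.3), and t-tests from scipy 1.17.1. Exact permutation tests went over all splits of the 6 arrays of an arm into groups of 3, in numpy. The rank product and limma, but not the exact test, were run on simulated data, with results not given here. Nothing in the labels gives array depth, and the number of arrays limits precision. Intensities and scanner files were not used.

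All members were named, as were up to 4 called genes per other list, direction and arm, and the 3 genes most like a member. The lists (receptors, processing, hormone sensing, other neuropeptides, and markers of thalamus, cortex and hippocampus, pituitary and choroid plexus) and the members were chosen with earlier results of these data known. Arrays of the same tissue came from separate mice per the study's design. Alternatives were quantile normalization, median centring, a filter on low signals, a stricter threshold, limma, the methods' t-test, a replicate block and leaving out arrays.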

Additional observations from a re-analysis of the deposited data

How the results depend on the processing

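Calls by the rank product moved widely with the processing, and limma called no peptide gene in either arm with or without the replicate block. On the values as deposited, the rank product called 76 probe sets higher and 176 lower in the regular arm and 110 and 336 in the Nano-Orz arm. The counts became 6, 113, 62 and 99 after quantile normalization, 21, 73, 70 and 160 without probe sets under the median signal, and 16, 78, 42 and 156 at a pfp below 0.01. The unadjusted methods' t-test called 1382, 1103, 1525 and 1140, and 0 in each after Benjamini-Hochberg adjustment, as did limma. Leaving out 1 array gave ranges of 12 to 73, 24 to 417, 7 to 126 and 68 to 378, the lowest without regular Orz 1, regular Veh 3, Nano-Orz Orz 1 and Nano-Orz Veh 2. After seeing the data, regular Orz 2 and Orz 3 were left out together (0 higher, 487 lower), as were Nano-Orz Veh 1 and Veh 2 (187 higher, 0 lower). The cause was not tested.

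For the peptide probe sets, the 1 called lower in the regular arm (Cck) became 0 with the signal filter, the stricter threshold, limma and both forms of the t-test, and ranged from 0 to 2 without 1 array. Its difference ran from -0.00623 log2 units without Orz 3 to 0.000772 without Orz 2. In the Nano-Orz arm the 1 higher (Nts) and the 1 lower (Pomc) became 0 after quantile normalization, without Veh 1 and Veh 2, and by limma or the t-test, the lower one also at the stricter threshold, and ranged from 0 to 1 and from 0 to 2 without 1 array. Orz 1 of that arm had a median signal of 7.153237 against 7.153371 to 7.153372 on the others. Median centring removes this, but a shift of a whole array leaves the ranks within each pair unchanged. It could therefore not alter a rank product call, and that both calls were kept is no check of them. Of the other 4 gene lists, 5 probe sets were higher and 1 lower in the regular arm (1 higher after quantile normalization, 2 to 5 and 0 to 1 without 1 array), and 2 higher and 3 lower in the Nano-Orz arm (0 and 1 after quantile normalization, 0 to 3 and 1 to 3 without 1 array). Among the recomputed values of single peptide probe sets, 31 calls were lost, 3 were gained, 1 value changed sign after a call, and 24 uncalled values moved by more than the spread between replicates.

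Deviations over all probe sets of mice with the same replicate number had no common sign (r 0.583, -0.442 and 0.144 in the regular arm and -0.986, 0.989 and -0.714 in the Nano-Orz arm). Not every array correlated best with its own number, with r 0.987 for Nano-Orz Orz 1 with Veh 3 and for Orz 2 with Veh 1. The deviations were not scaled, so that the few widest probe sets weigh most. These values therefore cannot decide whether the numbers pair mice. With the replicate block the rank product called 106 and 209 in the regular arm and 238 and 441 in the Nano-Orz arm, with the same 3 peptide probe sets, and limma called 0 and 0, and 0 and 1, with 0 peptide probe sets. The difference between arms passed for 2 probe sets as deposited, 128 after quantile normalization, 83 with the block and 0 to 91 without 1 array, the lowest without regular Orz 1 or Nano-Orz Veh 1 and the highest without regular Orz 3. Groups of 3 arrays limit each of these counts.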
